A study of Homo sapiens with 9 samples.

Results

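RNA polymerase II peaks inside gene bodies were examined in HEK293T cells, an established human embryonic kidney line. A peak was counted here when its summit, the position of its highest signal, lay inside an annotated gene and more than 1000 bp from every annotated transcript start. These peaks numbered 331 of the 8499 peaks on annotated chromosomes in 3 deposited lists. The control list held 42 of 2645, the list from U2AF1 knockdown 128 of 1584 and the list from DHX9 knockdown 161 of 4270. The remaining peaks lay at start sites (2301, 1278 and 3924) or outside genes (302, 178 and 185).

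The antibody was raised against POLR2A, the largest subunit of the polymerase. Control cells were labelled shCtrl with the genotype wildtype, and the other cells U2AF1 knockdown or DHX9 knockdown. All groups were HEK293T cells grown alike, and their chromatin was fixed with formaldehyde and sonicated. Each of the 3 conditions had 2 ChIP replicates and 1 input but only 1 deposited peak list, and the values below carry no error between replicates. All names in the control list carry the suffix -1 and those in the knockdown lists carry none, so the number of libraries behind the control list is unknown. Library depths are unknown from the lists, and a condition, its library depth and its list cannot be told apart. The labels do not say how strongly U2AF1 or DHX9 was reduced, and a peak list gives no RNA level to check it.

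Polymerase II is usually densest just after the start of a gene, where it pauses, and is spread thinly along the body while it elongates. Introns hold most of the body and most of its transposable elements, among them Alu elements, which descend from the 7SL RNA of the signal recognition particle, and SVA elements, whose middle part is a GC-rich tandem repeat. U2AF1 is the small subunit of the factor that recognises the 3′ splice site at the end of an intron. DHX9 is a helicase that unwinds RNA and RNA and DNA hybrids.

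The sequences around the summits fell into kinds that the rule had not used. The largest family of similar windows was a GC-rich repeat, found at 33 summits in introns of 30 host genes. Tandem GC-rich repeats are known from the middle part of SVA elements, but no repeat annotation was used here, so these windows are described only by what they share.

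Of the summits in single-copy sequence, 3 of those found in all 3 lists are shown with 200 bases each. In FRMD4A, which encodes a scaffold protein with a FERM domain, capitals mark GGGCGG, the core of the box bound by the factor SP1, at chr10:14185640-14185839 on the plus strand.

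FRMD4A: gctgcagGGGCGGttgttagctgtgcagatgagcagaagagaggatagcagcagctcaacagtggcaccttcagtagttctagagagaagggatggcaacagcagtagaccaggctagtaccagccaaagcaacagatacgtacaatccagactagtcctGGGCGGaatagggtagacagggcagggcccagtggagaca

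In ZBTB2, the gene of a zinc finger repressor, capitals mark the CG dinucleotides, of which 26 lay within chr6:151390025-151390224 on the plus strand.

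ZBTB2: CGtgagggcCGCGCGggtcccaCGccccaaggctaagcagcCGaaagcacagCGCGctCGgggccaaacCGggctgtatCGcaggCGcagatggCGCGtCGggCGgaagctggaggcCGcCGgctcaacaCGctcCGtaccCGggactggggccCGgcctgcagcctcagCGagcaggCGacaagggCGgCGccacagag

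In LINC00910, a long noncoding RNA gene, capitals mark the stretch that belongs to a small nuclear RNA gene of RefSeq (LOC124904147), in chr17:43367799-43367998 on the plus strand.

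LINC00910: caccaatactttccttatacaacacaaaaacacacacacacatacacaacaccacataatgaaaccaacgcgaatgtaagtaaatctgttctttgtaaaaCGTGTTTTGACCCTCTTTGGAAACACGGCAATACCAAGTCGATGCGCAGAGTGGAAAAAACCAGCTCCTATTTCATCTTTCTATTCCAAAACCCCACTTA

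The summits in the LINC00910 intron lay 42, 64 and 57 bp from the nearest base of that RefSeq gene in the lists from control, U2AF1 knockdown and DHX9 knockdown cells. By the rule, no transcript start of GENCODE lay within 1000 bp of them.

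Gene body peaks made up 1.59% of the control list (95% Wilson interval 1.18 to 2.14), 8.08% of the list from U2AF1 knockdown (6.84 to 9.53) and 3.77% of the list from DHX9 knockdown (3.24 to 4.38). The 3 intervals, which cover counting error only, did not overlap. With each list limited to its 1730 most significant peaks, the shares were 1.52% (DHX9 knockdown) and 1.38% (control). The list from U2AF1 knockdown was the shortest, with 1730 peaks, so it was not reduced and its share stayed at 8.08%. It kept its weakest peaks, which the other lists lost, so this setting does not test its share. With −log10 q of at least 5 the shares were 1.22% in the control list, 4.47% in the list from U2AF1 knockdown and 1.98% in the list from DHX9 knockdown. Among peaks in single-copy sequence, a setting added after the data were seen, they were 1.11%, 3.78% and 1.87%.

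**Figure D1:**
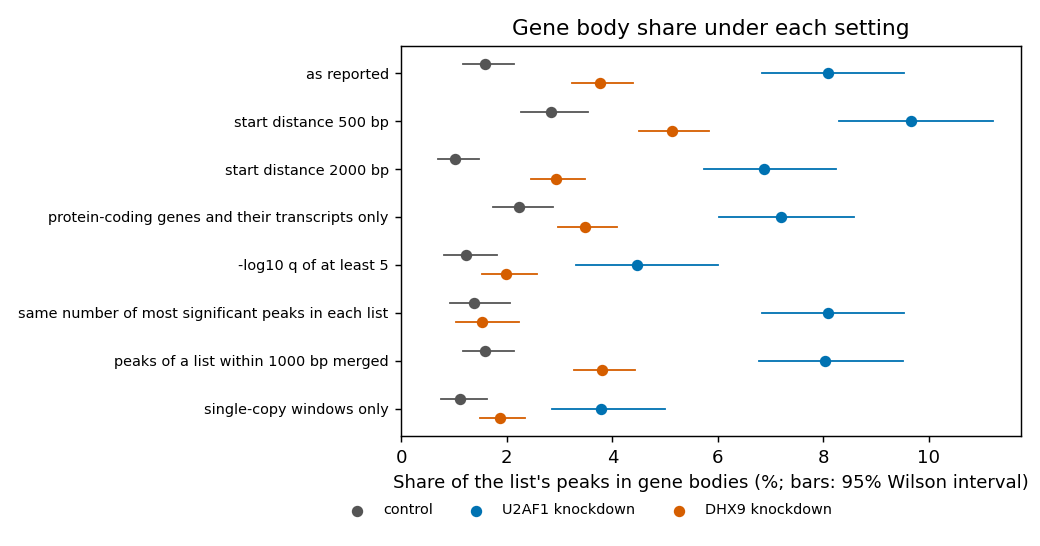
Share of each list's peaks with the summit in a gene body (x axis, percent) under each setting (y axis), with 95% Wilson intervals as bars. The U2AF1 knockdown list has the highest share in every setting, and the list from DHX9 knockdown comes to 1.52% beside 1.38% for the control list when all lists have the same number of most significant peaks. The U2AF1 knockdown list is the shortest and loses no peaks in that setting.

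Most of these summits lay in introns. The intron share was 81.0% in the control list (34 of 42), 82.8% in the list from U2AF1 knockdown (106 of 128) and 83.9% in the list from DHX9 knockdown (135 of 161). Exons of any overlapping gene held 19.0% (interval 9.98 to 33.3), 17.2% (11.6 to 24.7) and 16.1% (11.3 to 22.6), while exons make up 6.04% of the 1598 Mb of genome that the rule covers. The exon share differed by −1.86 points between the U2AF1 knockdown and control lists and by −2.90 points between the DHX9 knockdown and control lists. Neither difference passed Fisher's exact test (two-sided, Benjamini-Hochberg adjusted p = 0.874 for both and also for the remaining pair). Peaks of 2 lists, not replicates of 2 conditions, are what these tests set against each other. Some sites had a peak in both lists of a pair, so the 2 sides were not fully independent.

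First introns of the canonical transcript held 13 of 29 intronic summits in the control list, 33 of 102 in the list from U2AF1 knockdown and 49 of 126 in the list from DHX9 knockdown. A 3′ splice site of the host, the kind of site that U2AF1 helps to recognise, lay within 1 of 42 control peaks, 7 of 128 U2AF1 knockdown peaks and 9 of 161 DHX9 knockdown peaks. The 3 shares were 2.38% (interval 0.422 to 12.3), 5.47% (2.67 to 10.9) and 5.59% (2.97 to 10.3), with intervals that overlap.

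Exonic summits of the list from U2AF1 knockdown included inner exons of MTA1, a subunit of the NuRD chromatin complex (exon 17 of 21, fold enrichment 4.88), of BRSK2, a protein kinase (exon 10 of 20, 3.93), and of PKP4, a plakophilin of cell junctions (exon 7 of 22, 4.26). In the list from DHX9 knockdown they included the last exon of UNC13A, which primes synaptic vesicles (exon 44 of 44, 6.01, with a control peak of 3.77 there), DLL3, a Notch ligand (exon 7 of 9, 4.55), and FYCO1, an autophagy adaptor (exon 8 of 18, 4.42). The last of several exons held 4 of the 7 control summits that lay in a canonical exon, 6 of 18 in the list from U2AF1 knockdown and 9 of 21 in the list from DHX9 knockdown. The genes of both sets were chosen after their values were seen, to show where in a gene exonic summits lay.

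Few summits lay near the end of the host gene. Within 1000 bp of the end there were 2 of 42 control summits (4.76%), 3 of 128 U2AF1 knockdown summits (2.34%) and 6 of 161 DHX9 knockdown summits (3.73%). Positions within 1000 bp of the end of any gene make up 2.00% of the genome covered by the rule. That measure is wider, as summits were counted by the end of 1 chosen host only. The differences between lists did not pass Fisher's exact test (adjusted p = 0.736 for all 3 pairs), in which a site shared by 2 lists counts on both sides. GLTPD2, a gene with a glycolipid transfer domain, gave 1 of them in every list, 286, 594 and 520 bp from its end in the lists from control, U2AF1 knockdown and DHX9 knockdown cells. CDT1, which licenses replication origins, gave the other control summit, 494 bp from the end. CLEC11A, a secreted lectin, and USP17L20, a deubiquitinase of a tandem gene cluster, gave the other two of the list from U2AF1 knockdown, at 504 and 126 bp. The other 5 of the list from DHX9 knockdown were MED15P6 (230 bp), DYSF, the muscle membrane repair gene (573 bp), USP17L11 (113 bp), ENSG00000250838 (764 bp) and MLYCD, a decarboxylase gene (903 bp). With a start distance of 500 bp instead, 10 of 75 control summits and 5 of 153 U2AF1 knockdown summits lay near an end. That difference of −10.1 points passed Fisher's exact test (adjusted p = 0.0239, over the 3 pairs of that setting only). With a start distance of 2000 bp, 0 of 27 control, 0 of 109 U2AF1 knockdown and 2 of 125 DHX9 knockdown summits lay near an end.

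From the nearest start the median distance was 6445.5 bp for control summits, 8822 bp in the list from U2AF1 knockdown and 7490 bp in the list from DHX9 knockdown. Within 2000 bp of a start lay 15 of 42, 19 of 128 and 36 of 161 summits, and over 10000 bp away lay 16, 58 and 63. Just inside the limit, LINC00461 at 1046 bp (fold enrichment 2.95) and DNAAF2 at 1072 bp (4.14) were the nearest of the control list. GLTPD2 at 1031 bp (3.86) and HNRNPA0 at 1033 bp (11.1) were the nearest of the list from U2AF1 knockdown, and DNAAF2 at 1025 bp (4.82) and HNRNPA0 at 1037 bp (20.1) of the list from DHX9 knockdown. Just outside it lay control peaks in HNRNPA0 at 953 bp (9.60) and CCDC200 at 936 bp (7.64). In the list from U2AF1 knockdown RPTOR at 992 bp (2.10) and a peak in no gene at 952 bp (2.61) were just outside, and in the list from DHX9 knockdown MMP17 at 994 bp (3.903) and C17orf100 at 980 bp (5.23). HNRNPA0, the single-exon gene of an RNA-binding protein, thus fell on both sides of the limit: its summits in the 3 lists lay within 84 bp of each other.

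Relative to the whole host gene, from start to end, the median summit lay at 52.3% of the length in the control list, 47.6% in the list from U2AF1 knockdown and 46.8% in the list from DHX9 knockdown. The quartiles, 12.4 to 78.5%, 30.2 to 75.9% and 23.9 to 73.0%, show summits all along the genes.

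Fold enrichment is the ratio of signal to background that the authors deposited for each peak, and it describes peaks within 1 list only. Its median was 3.94 for gene body peaks and 4.30 for start site peaks of the control list, 3.86 and 5.09 in the list from U2AF1 knockdown, and 3.97 and 5.44 in the list from DHX9 knockdown. Their median rank by fold enrichment was 1553.5 of 2757 in the control list, 1293 of 1730 in the list from U2AF1 knockdown and 3785 of 4443 in the list from DHX9 knockdown. The top 100 held 6 gene body peaks of the control list, 1 of the list from U2AF1 knockdown and 3 of the list from DHX9 knockdown. Median widths were 338.5, 265.5 and 265 bp, beside 325, 288 and 327 bp at start sites.

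Windows of 300 bp around the summits were next sorted by sequence. A window counted as repeated when its median word of 31 bases occurred at least 2 times in the build, and otherwise as single-copy. Repeated windows made up 40.5% of the control gene body peaks (interval 27.0 to 55.5), 63.3% of the U2AF1 knockdown peaks (54.7 to 71.1) and 54.7% of the DHX9 knockdown peaks (46.9 to 62.2). At start sites the shares were 4.22, 9.31 and 4.49%. Peaks outside genes had more repeated windows than gene body peaks in every list, with 91.1, 79.8 and 60.5%, the control list being highest there. In 0 of the 331 windows was this due only to alternative sequences of the build. Placement of reads from such windows is uncertain, and how multiply mapped reads were treated is not given in the sources used here.

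This GC-rich repeat was the largest group of windows that aligned to each other. It held 19 of 128 gene body peaks in the list from U2AF1 knockdown (14.8%, interval 9.71 to 22.0), 14 of 161 in the list from DHX9 knockdown (8.70%, 5.25 to 14.1) and 0 of 42 in the control list, a count that allows a share of up to 7.14%. Over whole lists, 31 of 1584 U2AF1 knockdown peaks, 23 of 4270 DHX9 knockdown peaks and 0 of 2645 control peaks aligned to it, and the last count allows up to 0.113%. These alignments were to the family's gene body windows, all of which came from the knockdown lists. The knockdown counts thus include the 19 and 14 gene body peaks themselves. A control peak could count only by likeness to a knockdown window, so the whole-list counts are no independent comparison. Outside genes 10 and 9 peaks of the 2 knockdown lists aligned to the family, so the repeat was not confined to gene bodies.

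All 33 lay in introns, on 18 chromosomes. Their GC content was 68.3 to 83.7% with a median of 81.3%, and their median word occurred 21 to 1852.5 times in the build. Fold enrichment in the family ran from 3.597 to 6.55, and −log10 q from 1.70 to 10.1. With −log10 q of at least 5 the counts were 7 in the list from U2AF1 knockdown and 4 in the list from DHX9 knockdown, and among the 1730 most significant peaks of the list from DHX9 knockdown 1 was left.

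The strongest of the family in the list from U2AF1 knockdown lay in LINC00486 (fold enrichment 6.55, rank 271), in DNAJC25-GNG10, a readthrough of a chaperone and a G protein subunit gene (6.22, rank 331), and in CAPZA1, an actin capping protein gene (6.10, rank 353). In the list from DHX9 knockdown RBM19, a ribosome biogenesis factor (6.35), ENSG00000289586 (5.89) and ABCC2, a canalicular export pump (5.87), led the family. Its hosts there also included DDX23, a helicase of the U5 particle (5.34), INTS9, a subunit of the Integrator complex that cuts small nuclear RNA precursors (5.23), and MAP4, a microtubule protein (3.61). In the list from U2AF1 knockdown they also included RBL1, a retinoblastoma-like repressor (5.24), CDK5RAP2, a centrosomal protein (4.91), SENP7, a SUMO protease (3.66), and SESN1, a sestrin of the stress response (4.25).

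Both knockdown lists shared 3 sites of the family. The values in the U2AF1 knockdown and DHX9 knockdown lists were 6.55 and 4.48 in LINC00486, 5.24 and 5.87 in ABCC2, and 3.87 and 5.89 in ENSG00000289586. The other 16 sites of the list from U2AF1 knockdown and 11 of the list from DHX9 knockdown were found in 1 list each. The shared sites were 15.8% of the family's peaks in the list from U2AF1 knockdown. For comparison, a DHX9 knockdown peak overlapped 22.7% of the gene body peaks and 68.9% of all peaks of that list. In the list from DHX9 knockdown the shared sites were 21.4% of the family's peaks. A U2AF1 knockdown peak overlapped 17.4% of the gene body peaks and 25.4% of all peaks there. In 20 of the 33 windows no 31-base word was single-copy, and the placement of those peaks among the copies is uncertain.

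**Figure D2:**
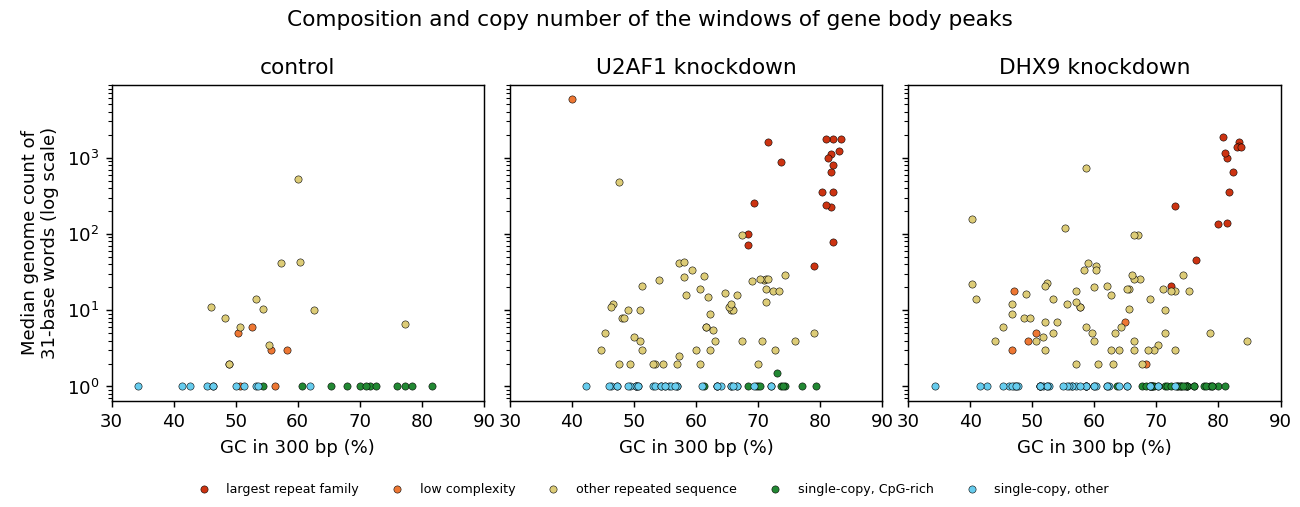
GC content of the 300 bp window (x axis, percent) against the median number of times its 31-base words occur in the build (y axis, log scale) for each gene body peak, with 1 panel per list and colours for the kind of sequence. The 33 windows of the largest repeat family sit at the upper right in both knockdown panels, at 68.3 to 83.7% GC, and the control panel has none of them.

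Several host genes held more than 1 peak in the knockdown lists, and 0 of the 42 host genes of the control list did. The control list also held fewer gene body peaks, 42 beside 128 and 161, and the part of that number was not tested. The U2AF1 knockdown list had 109 host genes, of which 11 held several peaks, and the list from DHX9 knockdown had 141, of which 12 did. TTC34, a tetratricopeptide gene, held the most in the list from U2AF1 knockdown, with 5 intron peaks of fold enrichment 2.94 to 5.89, and 3 in the list from DHX9 knockdown of 3.15 to 4.46. DANT2, a noncoding gene at the DXZ4 macrosatellite of the X chromosome, held the most in the list from DHX9 knockdown, with 6 peaks of 2.01 to 3.55, and 3 in the list from U2AF1 knockdown of 2.42 to 2.86. One DANT2 window is shown with its CG dinucleotides in capitals, as the strongest DANT2 peak of the list from DHX9 knockdown (fold enrichment 3.55, 200 bases from chrX:115850124-115850323, plus strand).

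DANT2: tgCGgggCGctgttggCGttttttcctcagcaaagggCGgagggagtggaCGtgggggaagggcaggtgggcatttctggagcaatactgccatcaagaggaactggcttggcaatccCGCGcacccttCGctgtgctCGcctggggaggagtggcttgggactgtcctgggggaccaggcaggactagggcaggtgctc

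The words of the DANT2 windows occurred 18 to 19 times, and those of the TTC34 windows 3 to 21 times. ENSG00000291225, a noncoding gene that overlaps the dynamin pseudogene DNM1P47, held 3 exonic peaks in each knockdown list (1.88 to 2.86 and 2.18 to 2.76) and 1 in the control list (1.77). DUX4, the homeobox gene of the D4Z4 array, held 3 in the list from U2AF1 knockdown (1.54 to 1.96), 2 in the list from DHX9 knockdown (1.64 to 1.74) and 1 in the control list (1.31). ENSG00000283360, a noncoding gene, held 2 and 3 peaks in the U2AF1 and DHX9 knockdown lists (2.21 to 2.78 and 2.94 to 3.31), and 3 of these 5 lay within 500 bp of transfer RNA genes of RefSeq. Transfer RNA genes are transcribed by polymerase III, and their part in these peaks was not tested. The remaining hosts with several peaks, such as LINC00665, ENSG00000267605, BRF1, a subunit of a polymerase III factor, and PTPRN2, held 2 or 3 each.

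Alu-like windows formed the next group. It held 18 windows, of which 14 aligned to the 7SL RNA gene RN7SL1, and 3, 6 and 9 of the 18 came from the lists from control, U2AF1 knockdown and DHX9 knockdown cells. Hosts included CDT1 (3.97 in the control list), SETD1A, a histone methyltransferase (3.57 in the list from DHX9 knockdown), and SLC35D1, a nucleotide sugar transporter (4.93 in the list from DHX9 knockdown). In all, 3 of 42, 6 of 128 and 7 of 161 gene body windows aligned to RN7SL1, beside 4 of 2301, 3 of 1278 and 14 of 3924 at start sites. Outside genes 1 of 302, 6 of 178 and 12 of 185 windows did. The share outside genes was above that in gene bodies only in the list from DHX9 knockdown (6.49 and 4.35%).

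Windows of low complexity, with few different triplets, made up 7 of 42 gene body peaks in the control list, 1 of 128 in the list from U2AF1 knockdown and 7 of 161 in the list from DHX9 knockdown. Outside genes such windows made up 18 of 302, 14 of 178 and 23 of 185 peaks, and at start sites 2 of 2301, 1 of 1278 and 1 of 3924. Of the 7 in gene bodies of the control list, 6 were among its 10 strongest gene body peaks. These were SNTG2, a syntrophin gene (fold enrichment 17.7, rank 40), LINC02646 (15.1), ENSG00000286364 (13.0), RASGEF1B, a Ras exchange factor gene (10.3), ITFG2-AS1 (10.1) and ADAMTSL2, a matrix protein gene (5.99).

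The SNTG2 site had a peak in the list from DHX9 knockdown too (7.097, rank 742, summit 8 bp away) and none in the list from U2AF1 knockdown. The other 6 low complexity gene body sites of the control list had no peak in either knockdown list. The same held for 45.2% of all control gene body peaks and 28.7% of all control peaks. The 6 further low complexity gene body peaks of the list from DHX9 knockdown, in SORCS2, CDH23, MEGF6, TEX19, MLYCD and DOCK1, had 1.71 to 3.99. The 1 of the list from U2AF1 knockdown, in SH3RF3, had 4.32.

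**Figure D3:**
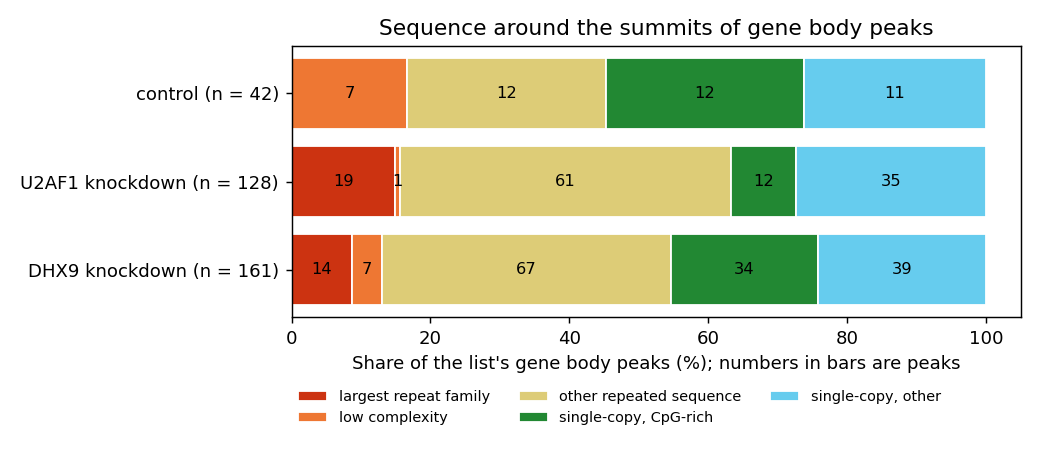
Share of each list's gene body peaks (x axis, percent) by the sequence of the 300 bp around the summit, with the number of peaks in each part of the bar. The largest repeat family holds 19 and 14 peaks in the 2 knockdown lists and 0 in the control list, and the CG-rich single-copy part holds 12, 12 and 34.

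Single-copy windows rich in CG dinucleotides (GC of at least 50% and an observed to expected ratio of at least 0.6), as is usual at start sites, made up 12 of 42 gene body peaks in the control list (28.6%), 12 of 128 in the list from U2AF1 knockdown (9.38%) and 34 of 161 in the list from DHX9 knockdown (21.1%). Counting repeated windows as well, 42.9, 28.1 and 39.1% of gene body windows met the CG limits, beside 95.6, 94.0 and 96.7% of start site windows. Outside genes 5.30, 10.1 and 34.1% of windows met them. For the single-copy CG-rich gene body peaks, median distances from the nearest start were 1409.5 bp for the 12 in the control list, 1573.5 bp for the 12 in the list from U2AF1 knockdown and 2968 bp for the 34 in the list from DHX9 knockdown.

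Hosts of these CG-rich sites in the list from DHX9 knockdown included BCOR, a corepressor (5.98), ZIC5, a zinc finger factor (5.89), SOX8, an SRY-related factor (4.48), RREB1, a zinc finger factor (5.03), SMARCD3, a subunit of SWI/SNF remodellers (4.93), PTCH1, the receptor of Hedgehog ligands (3.97), IRS1, an adaptor of insulin signalling (4.48), and EGLN3, a prolyl hydroxylase (3.903). In the list from U2AF1 knockdown they included KDM2B, a histone demethylase (5.15), INSM1, a zinc finger factor (3.93), and PKP4. These genes were chosen after their values were seen. In the list from DHX9 knockdown the starts of BCOR, ZIC5 and EGLN3 also had a peak, ranked 542, 2008 and 1218.

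A start site peak of the host gene in the same list accompanied few gene body peaks. It was present for 5 of 42 control peaks (11.9%, interval 5.19 to 25.0004), 8 of 128 U2AF1 knockdown peaks (6.25%, 3.20 to 11.8) and 34 of 161 DHX9 knockdown peaks (21.1%, 15.5 to 28.1). In the control list these were GTF2A1, a subunit of the general factor TFIIA (start peak ranked 160), USP12, a deubiquitinase (318), FNBP1L (794), ITFG2-AS1 (245) and ROCK1P1 (2749). The lists differ in their number of start site peaks, and the part of that in these shares was not tested.

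Short motifs were searched on both strands of the 300 bp windows. GGGCGG was found in 28.6, 36.7 and 40.4% of gene body windows of the lists from control, U2AF1 knockdown and DHX9 knockdown cells, beside 78.9, 76.3 and 78.9% of start site windows. CCAAT, the box bound by NF-Y, was found in 26.2, 14.8 and 19.3%, beside 24.3, 18.9 and 21.3%. CCGGAAG, a core bound by ETS factors, was found in 4.76, 3.91 and 8.70%, beside 15.99, 12.3 and 17.2%. AATAAA, the polyadenylation signal, was found in 14.3, 2.34 and 4.97%, beside 4.09, 2.82 and 2.96%. TATAAA was found in 1 of 42, 5 of 128 and 6 of 161 gene body windows (2.38, 3.91 and 3.73%). At start sites its shares were 5.91, 7.28 and 3.57%, and outside genes 33.4, 16.3 and 6.49%. Of the same 42, 128 and 161 windows, TGANTCA was found in 2, 2 and 6, GGTTCGA in 0, 2 and 1, and TTAGGGTT in 0, 0 and 2. Such words overlap with base composition, and a match is not a bound site.

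**Figure D4:**
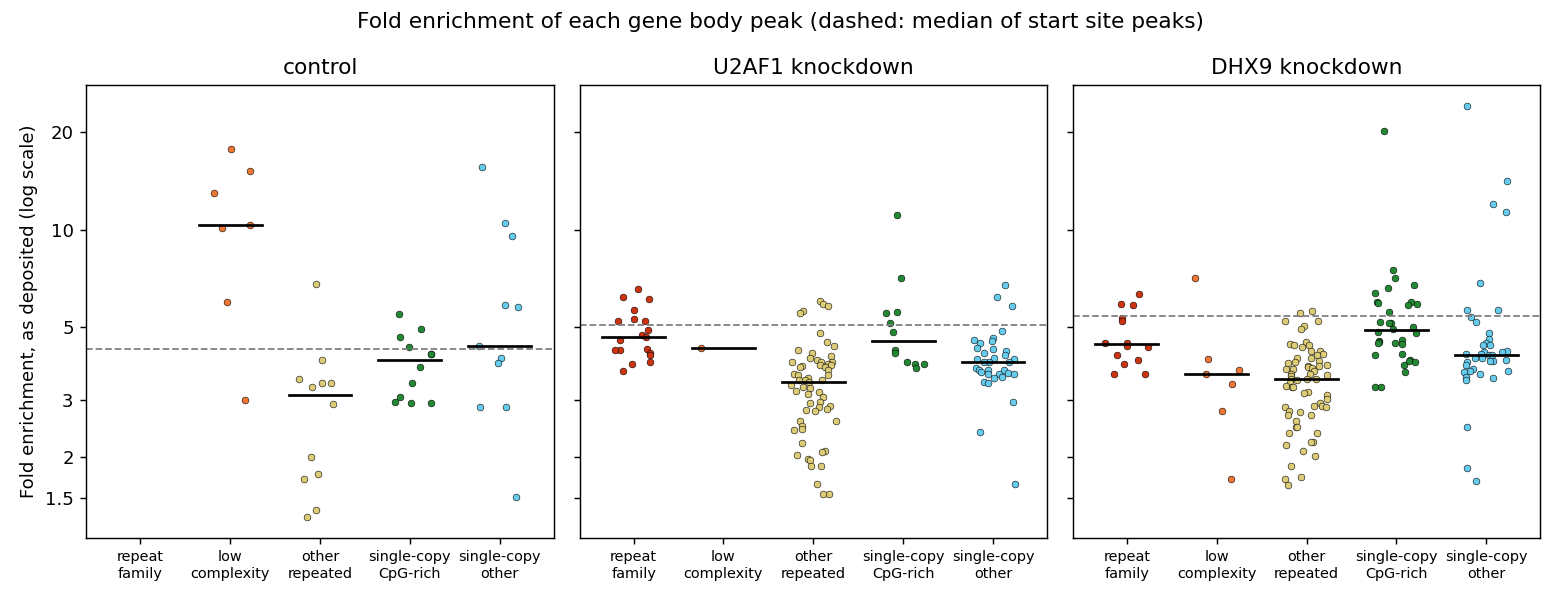
Fold enrichment as deposited (y axis, log scale) of each gene body peak, by kind of sequence (x axis) and list (panels), with black bars for medians and a dashed line for the median of the list's start site peaks. In the control panel the low complexity peaks have a median of 10.3 against 4.30 for start sites, and in the knockdown panels every class median lies below the dashed line.

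Overlap between lists, by at least 1 bp, was set beside the overlap of all peaks of the same list. A U2AF1 knockdown peak overlapped 13 of 42 control gene body peaks (30.95%, interval 19.1 to 46.0), beside 33.9% of all control peaks, and a DHX9 knockdown peak overlapped 22 of 42 (52.4%, 37.7 to 66.6), beside 67.1%. For the 128 gene body peaks of the list from U2AF1 knockdown the overlap was 14 with the control list (10.9%, 6.63 to 17.5), beside 57.0% of all its peaks, and 29 with the list from DHX9 knockdown (22.7%, 16.3 to 30.6), beside 68.9%. For the 161 of the list from DHX9 knockdown it was 24 with the control list (14.9%, 10.2 to 21.2), beside 41.5%, and 28 with the list from U2AF1 knockdown (17.4%, 12.3 to 24.0), beside 25.4%. The interval of the gene body peaks lay below the share over all peaks in 5 of these 6 pairs, and included it for control peaks overlapped by U2AF1 knockdown peaks. When the first list was limited to peaks with −log10 q of at least 5, the interval lay below the share over all peaks so limited in 3 pairs: both for U2AF1 knockdown peaks, and DHX9 knockdown peaks overlapped by control peaks. With the same number of most significant peaks per list it did so in 2, both for U2AF1 knockdown peaks, whose list that setting does not reduce.

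The same overlaps were counted in single-copy and in repeated windows. A DHX9 knockdown peak overlapped 17 of 25 control gene body peaks in single-copy windows and 5 of 17 in repeated ones, and a U2AF1 knockdown peak 9 of 25 and 4 of 17. Of the gene body peaks found after U2AF1 knockdown, a control peak overlapped 10 of 47 in single-copy and 4 of 81 in repeated windows, and a DHX9 knockdown peak 12 of 47 and 17 of 81. Of those found after DHX9 knockdown, a control peak overlapped 19 of 73 and 5 of 88, and a U2AF1 knockdown peak 11 of 73 and 17 of 88. The share was higher in single-copy windows in 5 of the 6 pairs and lower for DHX9 knockdown peaks overlapped by U2AF1 knockdown peaks, and the differences were not tested. No peak of either other list overlapped 19 of 42 control gene body peaks (45.2%), beside 28.7% of all control peaks. This held for 98 of 128 gene body peaks found after U2AF1 knockdown (76.6%), beside 23.7% of all peaks of that list, and for 122 of 161 found after DHX9 knockdown (75.8%), beside 51.4%.

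Joined across lists, the 331 peaks formed 280 sites, of which 13 had a peak in all 3 lists. FRMD4A, in intron 2, had fold enrichment 10.5 in the control list (chr10:14185453-14186120, rank 92), 6.20 in the list from U2AF1 knockdown (rank 339) and 24.1 in the list from DHX9 knockdown (rank 44), where it was the strongest gene body peak. LINC00910, in intron 4, had 15.6 (rank 53), 5.84 (rank 430) and 14.1 (rank 89). HNRNPA0 had 9.60 (rank 112, classed as a start site), 11.1 (rank 55) and 20.1 (rank 56). These 3 sites were the strongest shared ones in each list apart from the list from U2AF1 knockdown, where HNRNPA0, ZBTB2 and KRT125P led.

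KRT125P, a keratin pseudogene, had 5.79, 6.74 and 6.85. The summits lay in ENSG00000257616, a processed pseudogene within intron 2, and 303, 300 and 300 bp of the 3 windows aligned to the spliced transcript of DDX23 at 95.05, 95.3 and 94.7% identity, with the DHX9 knockdown summit 986 bp from the farthest of the others. ZBTB2, in intron 1, had 4.67, 7.08 and 6.74, with summits within 28 bp, and its own start had a peak in the list from DHX9 knockdown only, ranked 3549. DNAAF2, an assembly factor of ciliary dynein arms, had 4.14, 4.83 and 4.82 in exon 1 of 3.

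PTPRS, a receptor phosphatase, had 4.38, 4.12 and 5.65 in an intron, GLTPD2 had 3.37, 3.86 and 4.14, and ENSG00000254553 had 4.94, 3.86 and 5.15. The weakest of the 13 sites were ENSG00000291225 (1.77, 2.86 and 2.18), ARHGEF18, the gene of a guanine nucleotide exchange factor (1.502, 1.65 and 1.68), ROCK1P1, a kinase pseudogene (1.38, 1.53 and 1.71), and DUX4 (1.31, 1.87 and 1.64). Their summits lay within 13, 13, 12 and 9 bp across the lists. Values of different lists are set side by side here, and no change is read from them.

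**Figure D5:**
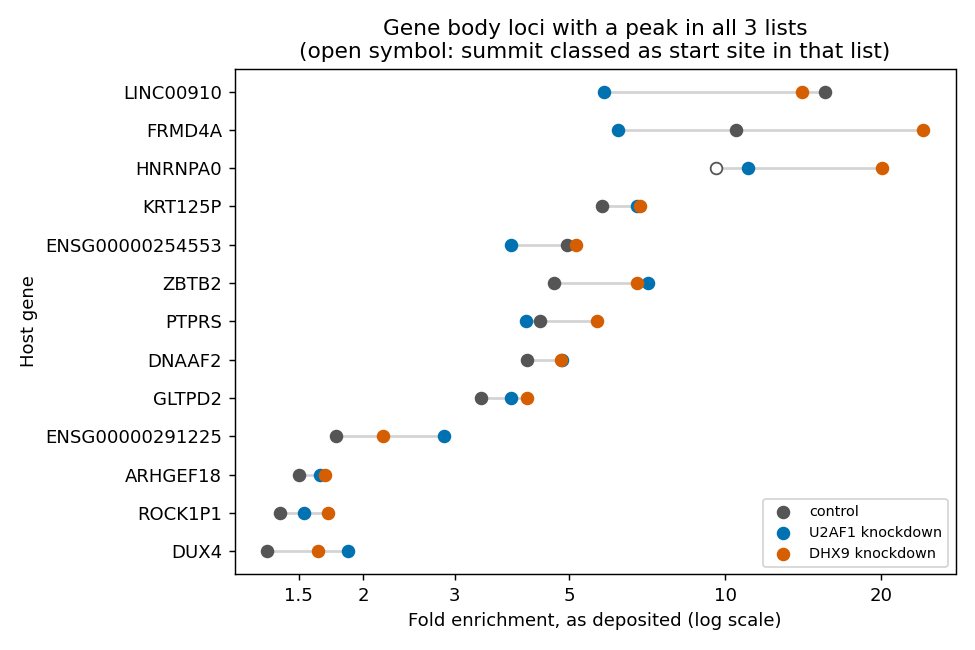
Fold enrichment as deposited (x axis, log scale) of the 13 gene body sites with a peak in all 3 lists, by host gene (y axis), with 1 symbol per list. In the control and DHX9 knockdown lists LINC00910, FRMD4A and HNRNPA0 have the highest values, 9.60 and more, and in the list from U2AF1 knockdown HNRNPA0 alone lies above 7.08.

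Sites shared by 2 lists numbered 11 for the control and DHX9 knockdown lists, 16 for the 2 knockdown lists and 1 for the control and U2AF1 knockdown lists. CUBN, the gene of the vitamin B12 receptor cubilin, had 5.85 in the control list and 11.4 in the list from DHX9 knockdown, with summits 5 bp apart in intron 54 of the canonical transcript. LINC02689 had 9.55 and 11.97, ENSG00000228862 had 5.52 and 7.09, and ITPKB, an inositol phosphate kinase gene, had 3.06 and 5.86. PCGF3, a Polycomb ring finger gene, had 5.62 and 5.53 in the U2AF1 and DHX9 knockdown lists and no control peak. FCRLB, an Fc receptor-like gene, had 4.16 and 5.85 there, the second as a start site peak. Of the 16 sites, 3 were of the largest family and 11 of other repeated sequence.

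U2AF1 itself was the single site of the control and U2AF1 knockdown lists. The summits lay in exon 6 of 8 of the canonical transcript, 3 bp apart, with fold enrichment 6.79 in the control list (chr21:43094477-43094787, rank 237) and 5.81 in the list from U2AF1 knockdown (rank 442). The median word of this window occurred 2 times in the build, which places a near-identical copy of U2AF1 on the short arm of chromosome 21, so reads of both copies cannot be told apart. The start of U2AF1 had a peak in the list from U2AF1 knockdown, ranked 1100. DHX9 and POLR2A held 0 gene body peaks in the 3 lists.

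Protein-coding genes hosted 27 of 42, 86 of 128 and 112 of 161 gene body peaks, and long noncoding RNA genes 14, 36 and 42. Over all lists there were 234 host genes. Of these, 189 were hosts in 1 list, 32 in 2 lists and 13 in all 3 lists. Other strong peaks of 1 list were LINC01606 in the list from U2AF1 knockdown (6.05, repeated sequence) and SLC29A3, a nucleoside transporter gene, in the list from DHX9 knockdown (7.499, single-copy and CG-rich).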

How the data were processed

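POLR2A ChIP-seq of 3 conditions, with 2 ChIP replicates and 1 input each (9 samples), is represented by 3 deposited peak lists. The submitters' processing notes name Bowtie2 2.4.5, MACS2 2.2.7.1, deepTools 3.5.1 and the build hg38. The authors deposited for each peak a fold enrichment (a ratio), its p-value and q-value as −log10, a score that is 10 times the −log10 q, and the offset of the summit from the peak's start. The background of the deposited fold, read filters and depths are not given in the sources used here.

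Summits were placed on GENCODE version 44 (25 chromosomes of GRCh38) with Python 3.11.15. A protein-coding host was preferred, then the longest. Peaks on other sequences (82 control, 100 U2AF1 knockdown and 127 DHX9 knockdown peaks) and on chromosome 21 below 14 Mb (30, 46 and 46) were left out. Words of 31 bases were counted in the whole build, alternative sequences included. Families joined windows aligned over at least 150 bp at 80% identity (blastn 2.17.0). Low complexity meant a triplet entropy under 4 bits, and an alignment to RN7SL1 needed 75% identity over 60 bp. Each window was assigned to the first kind that applied: low complexity, largest family, other repeated, single-copy. Small RNA genes within 500 bp came from RefSeq, and the sequences shown from the build.

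Shares carry 95% Wilson intervals, and a count of 0 allows 3 counts of the total. Exon and gene end shares were compared with two-sided Fisher's exact tests (scipy 1.17.1), adjusted over 3 pairs. Summit classes, exon membership, word counts and Fisher's exact test were checked on drawn positions, sequences and counts with known answers. Overlaps, families, the choice of host and the other sorting of windows were not checked in this way. Members and lists were chosen with earlier results of these data known, and the kinds of sequence after the windows were seen. Peaks named by rule were the 10 strongest gene body peaks of each list, the sites in all 3 lists, up to 3 hosts with most peaks per list, exon peaks of U2AF1, DHX9 and POLR2A, and the 2 nearest inside the 1000 bp limit. Others were chosen after their values were seen. Some sequences and 1 exonic peak are not reported here.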

Additional observations from a re-analysis of the deposited data

How the results depend on the processing

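No paired analysis was possible because only 1 list per condition was analysed, and for that reason no replicate could be left out. The order of gene body shares, U2AF1 knockdown above DHX9 knockdown above control, held under all 7 alternatives. With the same number of peaks, however, the DHX9 knockdown and control lists lay close together, with 25 of 1645 and 23 of 1661 peaks (1.52 and 1.38%). That setting also left the U2AF1 knockdown list whole. With a start distance of 500 bp the shares were 2.84, 9.66 and 5.13% (control, U2AF1 knockdown, DHX9 knockdown). At 2000 bp they were 1.02% in the control and 2.93% in the DHX9 knockdown list, and with protein-coding genes alone 2.23% in the control list. With −log10 q of at least 5 they were 4.47 and 1.98% in the U2AF1 and DHX9 knockdown lists, and with the same number of peaks 1.52% in the DHX9 knockdown list. In single-copy windows, chosen after seeing the data, they were 1.11, 3.78 and 1.87%.

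Exon share differences changed sign without passing Fisher's exact test: DHX9 minus U2AF1 knockdown was 1.59 points at 500 bp and 0.191 at 2000 bp, DHX9 knockdown minus control 0.0889 at 2000 bp and 5.92 in single-copy windows, and U2AF1 knockdown minus control 13.8 in single-copy windows. For gene ends, DHX9 knockdown minus control was 1.60 at 2000 bp and 0.110 in single-copy windows. U2AF1 knockdown minus control was 0.530 with −log10 q of at least 5, 0.255 in single-copy windows and, past the test's threshold, -10.1 at 500 bp. DHX9 minus U2AF1 knockdown was -1.17 with −log10 q of at least 5 and -0.146 in single-copy windows. The cause was not tested.

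Control peaks overlapped 22.0% of U2AF1 knockdown gene body peaks with −log10 q of at least 5 (71.4% of all such peaks), and DHX9 knockdown peaks 46.3% (81.4%), or 10.2% (44.6%) with the same number of peaks. Overlap of DHX9 knockdown gene body peaks under these settings became 31.5 and 48.0% with control peaks (53.4 and 53.4% of all peaks), and 35.2 and 48.0% with U2AF1 knockdown peaks (33.5 and 42.5%). The largest family, also an alternative chosen after seeing the data, fell to 7 peaks of the U2AF1 knockdown list and 4 of the DHX9 knockdown list with −log10 q of at least 5, and to 1 of the latter with the same number of peaks. These settings leave fewer peaks, except that the same number of peaks leaves the U2AF1 knockdown list whole. Depth is unknown and its part was not tested.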
